A study of Drosophila melanogaster with 12 samples.

Results

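The Tweedle and Osiris genes are a pair of insect gene families whose known work lies in cuticle, the chitin and protein layer that covers the fly and lines its trachea and foregut. The Drosophila melanogaster count table was searched by FlyBase symbol, and every row whose symbol starts with Twdl, or is Osi followed by a digit, was taken. This gave 48 of 17707 rows, 26 Tweedle genes and 22 Osiris genes. Osi10a, Osi10b and Osi21 had no matching identifier and were not analysed here. RNA came from whole bodies of flies of either diet: T72h and T96h were flies kept on medium with erythritol, a sugar alcohol, for 72 h and 96 h (day 3 and day 4), and CK72h and CK96h were flies kept on the same medium without erythritol for the same times. The flies were newly emerged when they entered the flasks, so time on the diet is also time since emergence. Neither strain nor sex is stated in the sources used. Each group had 3 libraries, which the study describes as biological replicates of pooled flies, and p-values measure only the spread between these libraries.

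Tweedle proteins are secreted structural proteins of the cuticle that share a domain of that name. The family takes its name from Drosophila mutants with short, squat bodies, one of them a mutation in TwdlD, and a silkworm member is known to bind chitin. Osiris proteins carry a signal peptide, are found in insects, and are made in epithelia at the time these secrete cuticle. Most of the Osiris genes stand side by side at the Triplo-lethal region, where flies tolerate neither a missing nor an extra copy, and Osi23, also called gore-tex, is needed for the pores of olfactory bristles. Cuticle is laid down before and shortly after emergence, in a matrix of chitin that is then tanned.

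In the Release 6 assembly (dm6), to which the authors aligned the reads, 20 of the 22 Osiris genes lie in one run, Osi1 to Osi20, at chr3R:6173549-6341424. Osi22 and Osi23 stand alone on the same arm. Of the Tweedle genes, 12 lie from TwdlM to TwdlD at chr3R:26619118-26641054, 4 from TwdlU to TwdlV at chr3R:4243606-4255833 and 4 from TwdlX to Twdlalpha at chrX:16731091-16744365. TwdlE on 2L, Twdlbeta on 2R, and TwdlW, TwdlQ, TwdlC and TwdlT on 3R stand alone, where genes of a family less than 50 kb apart were counted as one run. TwdlU is annotated as a pseudogene.

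The 12 libraries held 19855575 to 23327826 counts each. Levels are given as CPM, the counts of a gene per 1000000 counts of a library whose size was scaled by TMM, and where genes are compared with each other, as CPM per kb of annotated exon. The biological coefficient of variation in the fit over all genes was 4.06%. T72h replicate 3 had the highest share of mitochondrial counts, 16.5%, against 7.29% to 11.9% in the other libraries. Transcripts known from adult tissues were present in all groups. Of a list of 9 such genes, 6 were lower and 2 higher in T72h than in CK72h and 2 were lower and 1 higher in T96h than in CK96h, by the thresholds given below. They summed to 3094 ± 74.2 CPM in T72h and 6489 ± 61.7 CPM in CK72h, and to 4391 ± 35.3 CPM in T96h and 8491 ± 714 CPM in CK96h. The photoreceptor gene ninaE, one of those lower at 72 h, averaged 678 CPM in T72h and 2488 CPM in CK72h. Ovary and testis transcripts were found in each group, and their summed levels differed between the groups. The eggshell list (17 genes) summed to 586 ± 21.9 CPM in T72h and 4206 ± 64.9 CPM in CK72h, and to 8.09 ± 0.61 CPM in T96h and 8543 ± 499 CPM in CK96h. The testis list (11 genes) summed to 1290 ± 39 CPM in T72h and 2541 ± 2.27 CPM in CK72h, and to 2619 ± 27.1 CPM in T96h and 1028 ± 22.6 CPM in CK96h (SD, n = 3 each). In whole flies, fewer cells of a type and less RNA per cell cannot be told apart, and the part of these tissues in the results below was not tested except where a value is given.

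Genes are given as down- or up-regulated where the adjusted p was below 0.05 with a log2 fold change of 1.5 or more in size, by edgeR's quasi-likelihood test over 13179 genes with Benjamini-Hochberg adjustment. All adjusted p-values below are from this test. Of the 48 family genes, 30 had enough counts to be tested, 17 Tweedle and 13 Osiris genes. Of these, 14 Tweedle and 7 Osiris genes passed the count filter only with the help of the control libraries. Such genes were kept because of their control levels, which favours a lower value on erythritol. The counts of calls below are therefore descriptions of the families and no support for a change. The same holds for the adjusted p-values of these genes wherever they are given below. They are all tested Tweedle genes except Twdlalpha, TwdlT and TwdlG, and the Osiris genes Osi7, Osi9, Osi15, Osi17, Osi18, Osi19 and Osi20. The other 18 genes had at most 16 counts in any library: TwdlH, TwdlJ, TwdlK, TwdlO, TwdlQ, TwdlR, TwdlS, TwdlU and TwdlZ, and Osi1, Osi3, Osi4, Osi8, Osi11, Osi13, Osi16, Osi22 and Osi23.

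Both families stood lower on erythritol, at 72 h as at 96 h. The summed level of all 26 Tweedle genes was 9.06, 7.40 and 8.17 CPM in the T72h libraries, against 82.7, 80.9 and 84.0 CPM in the CK72h libraries, a 10.1-fold lower mean. At 96 h it was 10.7, 12.4 and 10.6 CPM in T96h, against 83.1, 82.7 and 84.4 CPM in CK96h, a 7.41-fold lower mean. The groups did not overlap at either time. By single genes, 18 of the 26 Tweedle genes (17 of the 17 tested) had all T72h libraries below all CK72h libraries, as 42.4% of all genes tested did. All T96h libraries were below all CK96h libraries in 19 (15 of the 17 tested), against 41.7%. The 22 Osiris genes summed to 6.91, 6.97 and 7.92 CPM in T72h, against 313.6, 309.8 and 306.9 CPM in CK72h, a 42.7-fold lower mean. At 96 h they summed to 7.73, 7.87 and 8.43 CPM in T96h, against 89.6, 91.4 and 99.4 CPM in CK96h, an 11.7-fold lower mean. Again no library of one group reached the range of the other. Of the 22 single Osiris genes, 15 at 72 h and 10 at 96 h had their erythritol libraries below the controls without overlap. Among the 13 tested it was 13 and 10, against 42.4% and 41.7% of all genes tested. At 96 h, Osi4 (14 counts in T96h, 4 in CK96h) and Osi11 (5 counts in T96h, 1 in CK96h), both untested, lay above the controls without overlap. So did Twdlalpha among the Tweedle genes, and no share of all genes was computed for that direction. With 3 libraries against 3, the exact 2-sided permutation test gave p = 0.1 for each of these differences in summed level, the smallest p it allows.

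**Figure D1:**
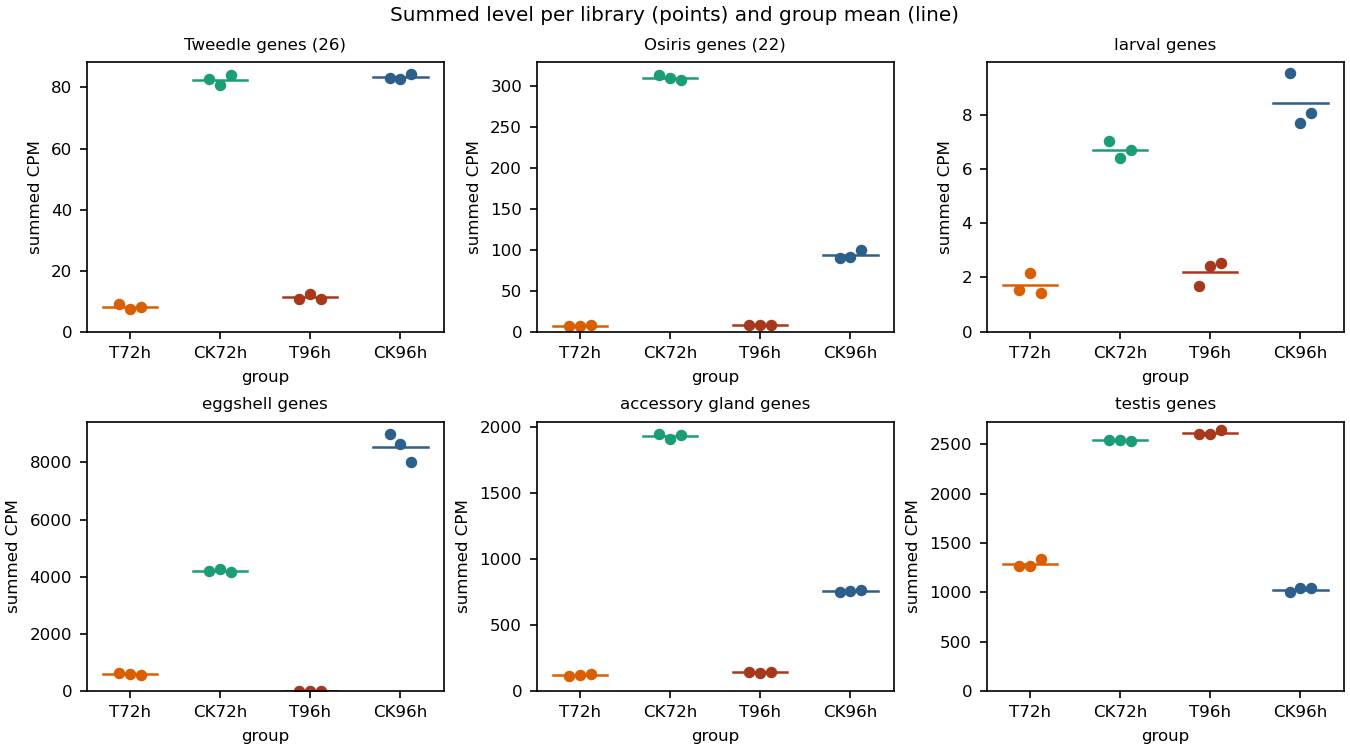
Summed CPM of each gene set in each library (points) and the group mean (line), with the groups T72h, CK72h, T96h and CK96h on the x axis and each panel starting at 0. The Tweedle sum lies between 7.40 and 12.4 CPM in the erythritol libraries and between 80.9 and 84.4 CPM in the control libraries, and the Osiris sum is lower in CK96h than in CK72h; the lower panels show that eggshell, accessory gland and testis transcripts also differ between the groups.

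By single genes, 16 of the 26 Tweedle genes were down-regulated in T72h compared with CK72h (61.5%), and 11 of the 22 Osiris genes (50%). Of all genes tested, 8.92% were down-regulated. No family gene was up-regulated at 72 h, where 3.98% of all genes were. The unadjusted p was under 0.05 for 0 family genes in that direction, and DESeq2 gave 0 too. In T96h compared with CK96h, 15 Tweedle genes (57.7%) and 9 Osiris genes (40.9%) were down-regulated, against 7.15% of all genes tested. None was up-regulated by edgeR or by DESeq2, against 3.97% of all genes, and 1 Tweedle gene, Twdlalpha, had an unadjusted p under 0.05 in that direction. All 15 Tweedle and all 9 Osiris genes called at 96 h were also called at 72 h. TwdlP, Osi2 and Osi12 were called at 72 h alone, and the differences between the times are given with their tests below. The median log2 fold change of the tested Tweedle genes was -4.50 at 72 h and -4.10 at 96 h, and that of the Osiris genes -4.96 and -3.39, against -0.05 and -0.02 for all genes. With genes at 0 put at their bound these medians were the same. Without the count filter the medians over the full families were -3.09 and -2.80 for Tweedle and -2.74 and -1.68 for Osiris.

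Genes with a mean of at least 1 CPM were counted in each group. Among the Tweedle genes it was 2 in T72h and 15 in CK72h, and 1 in T96h and 14 in CK96h. Among the Osiris genes it was 1 in T72h and 13 in CK72h, and 3 in T96h and 10 in CK96h. Without a single count were 4 Tweedle genes in T72h and 0 in CK72h, and 8 in T96h and 2 in CK96h. Of the Osiris genes, 5 had no count in T72h and 2 in CK72h, and 3 in T96h and 2 in CK96h.

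**Figure D2:**
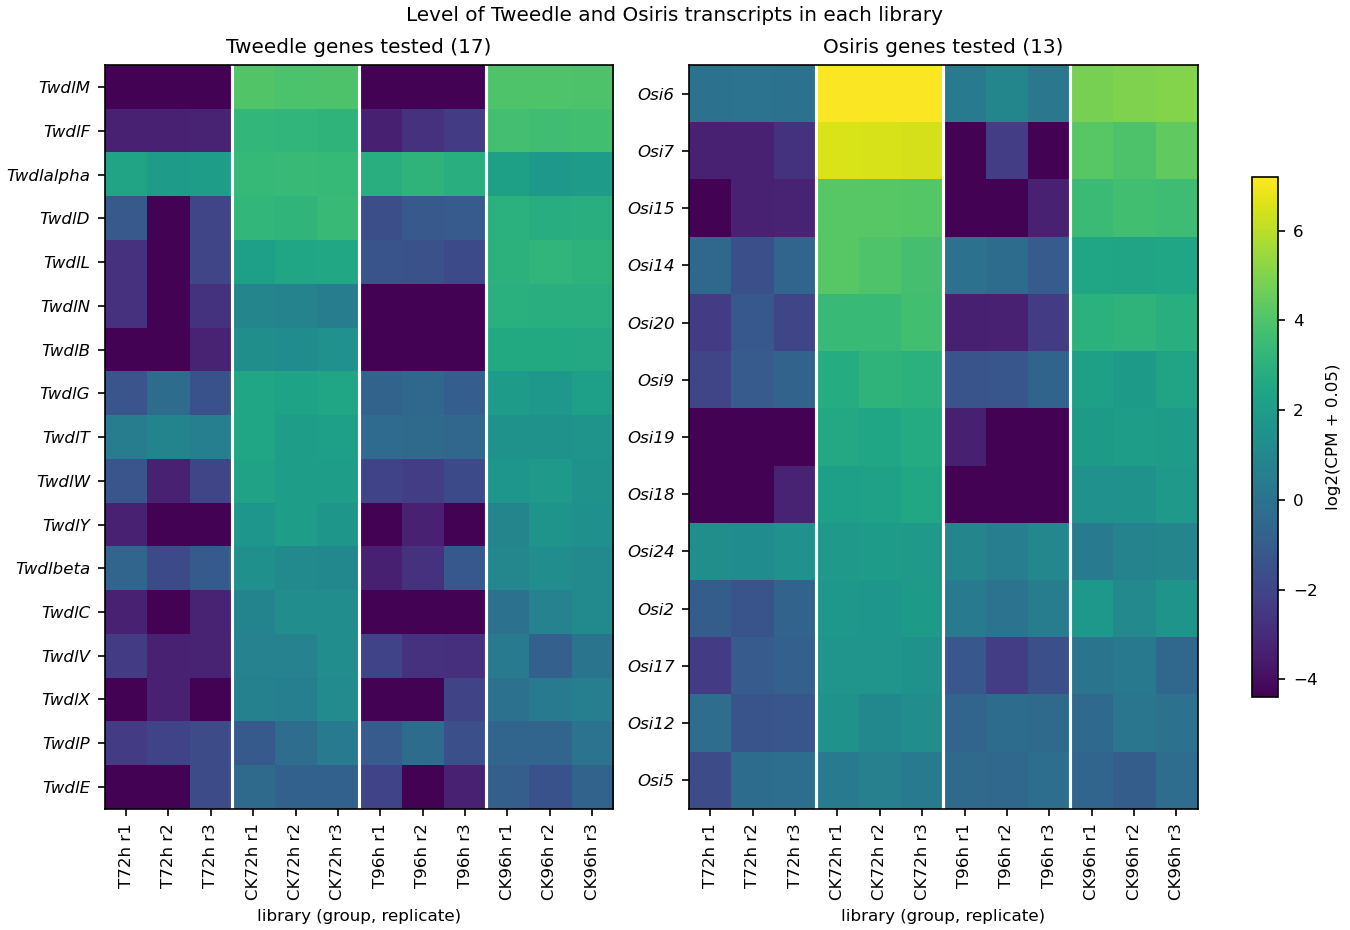
Level of the 17 Tweedle and 13 Osiris genes tested, as log2(CPM + 0.05), with a row per gene, ordered by its highest group mean, and a column per library, grouped as T72h, CK72h, T96h and CK96h (r, replicate). Most rows are dark in all 6 erythritol libraries, the rows of Twdlalpha, TwdlT and Osi24 stay lighter there, and the Osi6 and Osi7 rows are brightest in CK72h.

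The Tweedle genes of the TwdlM to TwdlD run are described first. TwdlM (FBgn0039434), the Tweedle gene with the highest level per kb in both control groups, had 0 counts in all 3 T72h libraries, against 16.3, 15.1 and 15.5 CPM in CK72h. It also had 0 counts in the 3 T96h libraries, against 15.9, 15.9 and 15.6 CPM in CK96h. With a floor of 3 counts for the group, it was at least 315-fold lower in T72h (adjusted p = 4.81e-18) and at least 326-fold lower in T96h (adjusted p = 4.04e-18). TwdlD (FBgn0039444), the gene of the squat-body mutant, had 0.401, 0 and 0.203 CPM in T72h, against 9.58, 9.07 and 10.5 CPM in CK72h. At 96 h it had 0.281, 0.403 and 0.433 CPM in T96h, against 7.96, 7.14 and 7.39 CPM in CK96h. The groups were far apart at both times, and the log2 fold change was -5.57 at 72 h (SE 0.27, adjusted p = 1.23e-15) and -4.31 at 96 h (SE 0.25, adjusted p = 4.43e-14). The SE of a fold with few counts in 1 group can lie below counting error.

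TwdlL (FBgn0039437) had 0.1002, 0 and 0.203 CPM in T72h, against 4.35, 5.43 and 5.73 CPM in CK72h. In T96h it had 0.328, 0.303 and 0.241 CPM, against 8.35, 9.37 and 8.60 CPM in CK96h. Its libraries did not overlap, and the log2 fold change was -5.62 at 72 h (adjusted p = 6.05e-14) and -4.89 at 96 h (adjusted p = 2.05e-15). TwdlB (FBgn0039436) had 0, 0 and 0.0507 CPM in T72h, against 2.51, 2.34 and 2.71 CPM in CK72h. In T96h all 3 libraries were at 0, against 6.12, 6.23 and 5.92 CPM in CK96h. On 1 and 175 counts TwdlB was 152-fold lower in T72h (95% exact counting interval 27.0 to 6055, adjusted p = 1.27e-11), and it was at least 126-fold lower in T96h (adjusted p = 8.87e-15). TwdlN (FBgn0039441) had 0.1002, 0 and 0.101 CPM in T72h, against 1.799, 1.69 and 1.38 CPM in CK72h (log2 fold change -4.50, adjusted p = 4.26e-09). In T96h it was at 0 in every library, against 7.86, 7.34 and 7.61 CPM in CK96h, at least 157-fold lower (adjusted p = 3.93e-15). TwdlB and TwdlN thus had 1 and 4 counts in all of T72h and none in T96h. In the same run, TwdlP had a mean of 0.199 CPM in T72h and 0.830 CPM in CK72h (log2 fold change -2.02, adjusted p = 0.000788). It had 0.489 CPM in T96h and 0.718 CPM in CK96h, where the libraries overlapped (adjusted p = 0.217).

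Of the TwdlU to TwdlV run, TwdlF (FBgn0037224) had the highest level per kb in control flies. It had 0.0501, 0.0481 and 0.0507 CPM in T72h, a single count per library, against 9.54, 9.25 and 8.67 CPM in CK72h. In T96h it had 0.0468, 0.101 and 0.144 CPM, against 13.1, 12.5 and 12.8 CPM in CK96h. TwdlF was 185-fold lower in T72h (95% exact counting interval 62.9 to 898, adjusted p = 2.21e-18). Its log2 fold change at 96 h was -6.96, on 6 counts in T96h (adjusted p = 1.82e-19). Its neighbour TwdlG (FBgn0037225) was down-regulated as well, with 0.351, 0.769 and 0.304 CPM in T72h, against 5.27, 5.04 and 5.51 CPM in CK72h, and with 0.562, 0.656 and 0.482 CPM in T96h, against 3.98, 3.44 and 4.32 CPM in CK96h. Its log2 fold change was -3.44 at 72 h (SE 0.24, adjusted p = 1.86e-12) and -2.78 at 96 h (SE 0.24, adjusted p = 1.39e-10). TwdlV was down-regulated at both times, by log2 fold changes of -4.41 and -2.80. The only other tested gene within this run, CG14644, had 7.35 CPM in T72h and 16.2 CPM in CK72h, and 14.8 CPM in T96h and 6.07 CPM in CK96h. It was not called at either time, with log2 fold changes of -1.14 at 72 h (adjusted p = 2.74e-10) and 1.29 at 96 h (adjusted p = 6.43e-11).

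Among the Tweedle genes elsewhere, TwdlW, TwdlC, TwdlX, TwdlY, TwdlT, TwdlE and Twdlbeta were down-regulated at both times. TwdlT (FBgn0029170) had the smallest fall of these, a log2 fold change of -1.60 at 72 h (adjusted p = 1.82e-08) and -2.05 at 96 h (adjusted p = 1.24e-08). Without CK72h replicate 1 its value at 72 h was -1.46, short of the fold threshold. TwdlE was at 0.0846 CPM in T72h and 0.588 CPM in CK72h, and shares 968 exonic bases with lectin-28C on the opposite strand. That gene was at 16.3 CPM in T72h and 6.98 CPM in CK72h, and with no strand setting stated for the counting, what is assigned to TwdlE is uncertain. Tb, the Tweedle gene behind the Tubby mutant and outside the symbol rule, had 0.1002, 0 and 0 CPM in T72h, against 0.920, 0.608 and 0.667 CPM in CK72h, and was down-regulated at 72 h (adjusted p = 4.43e-06) and at 96 h (adjusted p = 1.41e-06).

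Twdlalpha (FBgn0052574) was the exception in the Tweedle family. It had 5.06, 3.94 and 4.21 CPM in T72h, against 10.5, 10.8 and 10.4 CPM in CK72h. At 96 h it had 7.35, 8.72 and 7.27 CPM in T96h, against 4.57, 3.39 and 4.02 CPM in CK96h. The erythritol libraries were thus all below the controls at 72 h and all above them at 96 h. The log2 fold change was -1.26 at 72 h (SE 0.12, adjusted p = 9.42e-10) and 0.96 at 96 h (SE 0.13, adjusted p = 3.21e-07), both short of the fold threshold, and the difference between them was 2.22 (SE 0.18, adjusted p = 4.16e-11). Twdlalpha made up 53.6% of the Tweedle counts in T72h and 12.8% in CK72h, and 69.1% in T96h, the highest share of any Tweedle gene in each erythritol group. It overlaps CG32568 on the same strand by 72 exonic bases. CG32568 had 4.69 ± 0.896 CPM in T72h and 11.6 ± 0.919 CPM in CK72h, and 8.23 ± 0.889 CPM in T96h and 4.62 ± 0.694 CPM in CK96h (SD, n = 3 each), with log2 fold changes of -1.31 and 0.82. The summed testis transcripts changed in the same directions at both times, with 0 of 10 tested testis genes called at either time and medians of -0.96 and 1.14. The part of the overlapping gene and of the testis in the Twdlalpha values was not tested.

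**Figure D3:**
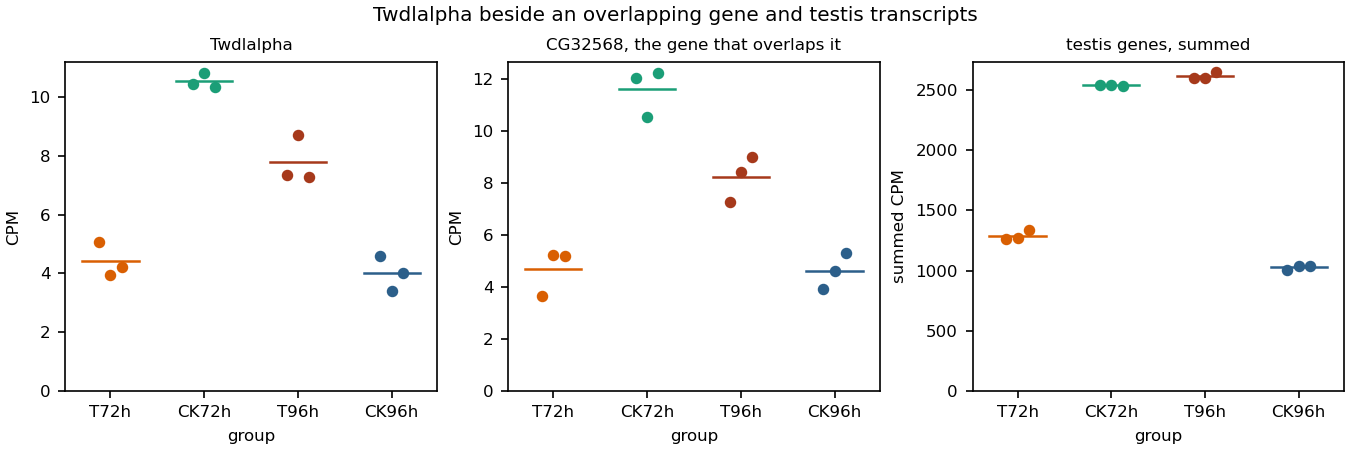
CPM of Twdlalpha, CPM of CG32568 and summed CPM of 11 testis genes in each library (points) with the group mean (line), for T72h, CK72h, T96h and CK96h, axes from 0. In all 3 panels the T72h libraries lie below those of CK72h and the T96h libraries above those of CK96h.

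The Osiris counts of control flies came mostly from a pair of neighbours, Osi6 and Osi7. Together with the rest of the run they are made in cuticle-secreting epithelia. Osi6 (FBgn0027527) had 0.901, 0.961 and 0.913 CPM in T72h, against 140, 140 and 139 CPM in CK72h. At 96 h it had 1.26, 1.87 and 1.11 CPM in T96h, against 28.1, 31.2 and 32.7 CPM in CK96h. Its log2 fold change was -7.23 at 72 h (SE 0.09, adjusted p = 1.23e-27) and -4.45 at 96 h (SE 0.11, adjusted p = 4.83e-22). With 56 counts in T72h and 87 in T96h, both SE lie below counting error. Osi7 (FBgn0037414) had 0.0501, 0.0481 and 0.101 CPM in T72h, 4 counts in all, against 93.6, 90.1 and 88.5 CPM in CK72h. At 96 h it had 0, 0.151 and 0 CPM in T96h, against 18.4, 15.7 and 20.9 CPM in CK96h. No erythritol library came near the controls. Its log2 fold change at 72 h was -10.30 (adjusted p = 6.06e-25), and at 96 h it was 382-fold lower (95% exact counting interval 130 to 1856, adjusted p = 1.53e-19). Osi6 held 45.0% and Osi7 29.3% of the Osiris counts in CK72h, and 32.8% and 19.7% in CK96h. Without these 2 genes the Osiris sum was 6.27 ± 0.543 CPM in T72h and 79.9 ± 0.342 CPM in CK72h, and 6.545 ± 0.739 CPM in T96h and 44.4 ± 1.36 CPM in CK96h, 12.7-fold lower at 72 h and 6.78-fold lower at 96 h.

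Osi9, Osi15 and Osi19 are known from the embryonic trachea. Osi15 (FBgn0037424) had 0, 0.0481 and 0.0507 CPM in T72h, against 18.1, 18.2 and 17.5 CPM in CK72h, and 0, 0 and 0.0482 CPM in T96h, against 11.2, 12.7 and 12.1 CPM in CK96h. It was 542-fold lower at 72 h (95% exact counting interval 150 to 4483, adjusted p = 1.53e-20) and 745-fold lower at 96 h (133 to 29480, adjusted p = 3.49e-19). Osi19 (FBgn0037429) was at 0 in all T72h libraries, against 6.02, 5.56 and 6.62 CPM in CK72h, and had 0.0468, 0 and 0 CPM in T96h, against 3.68, 4.10 and 3.93 CPM in CK96h. This made it at least 122-fold lower at 72 h (adjusted p = 1.06e-14) and 242-fold lower at 96 h (43.0 to 9593, adjusted p = 3.61e-13). Osi9 (FBgn0037416) kept a low level, 0.200, 0.433 and 0.558 CPM in T72h, against 6.86, 8.90 and 7.91 CPM in CK72h, and 0.328, 0.353 and 0.578 CPM in T96h, against 4.48, 3.70 and 5.10 CPM in CK96h. Its log2 fold change was -4.29 at 72 h (SE 0.24, adjusted p = 2.71e-14) and -3.39 at 96 h (SE 0.27, adjusted p = 1.51e-11). All 3 genes were without overlap at both times.

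Osi14 (FBgn0040279) had 0.651, 0.288 and 0.609 CPM in T72h, against 18.4, 16.1 and 13.8 CPM in CK72h, and 0.890, 0.756 and 0.433 CPM in T96h, against 5.37, 5.22 and 5.53 CPM in CK96h. Its log2 fold change was -4.96 at 72 h (SE 0.20, adjusted p = 2.19e-17) and -2.94 at 96 h (SE 0.23, adjusted p = 9.32e-12). Osi20 (FBgn0037430), the last gene of the run, had 0.150, 0.384 and 0.203 CPM in T72h, against 10.96, 10.5 and 12.7 CPM in CK72h, and 0.0468, 0.0504 and 0.144 CPM in T96h, against 8.06, 8.71 and 7.61 CPM in CK96h. It was down-regulated with a log2 fold change of -5.49 at 72 h (15 counts in T72h, adjusted p = 2.32e-17) and -6.55 at 96 h (5 counts in T96h, adjusted p = 1.35e-16). Osi18 (FBgn0037428) had 0, 0 and 0.0507 CPM in T72h, against 4.35, 4.69 and 5.601 CPM in CK72h. In T96h it was at 0, against 2.69, 2.79 and 3.50 CPM in CK96h. It was 294-fold lower at 72 h (95% exact counting interval 52.5 to 11663, adjusted p = 2.82e-13) and at least 62.3-fold lower at 96 h (adjusted p = 6.61e-12).

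Of the remaining tested Osiris genes, Osi17 had log2 fold changes of -3.04 at 72 h (adjusted p = 3.37e-09) and -1.73 at 96 h (adjusted p = 0.00049), and -1.46 at 96 h without T96h replicate 2. Osi2 had -2.93 at 72 h (adjusted p = 4.26e-10) and -1.26 at 96 h (adjusted p = 2.35e-05), and Osi12 had -2.27 (adjusted p = 2.53e-07) and -0.35 (adjusted p = 0.339). Osi5 and Osi24 were not called at either time. Osi24, which lies between Osi1 and Osi2, had 2.504, 2.31 and 2.69 CPM in T72h, against 3.51, 3.99 and 3.47 CPM in CK72h, and 1.78, 1.41 and 1.88 CPM in T96h, against 1.24, 1.67 and 1.82 CPM in CK96h. The groups were apart at 72 h, at a log2 fold change of -0.55 (adjusted p = 0.00642), and overlapped at 96 h, at 0.10 (adjusted p = 0.693). Osi24 held 34.4% of the Osiris counts in T72h, the highest share of the family there.

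**Figure D4:**
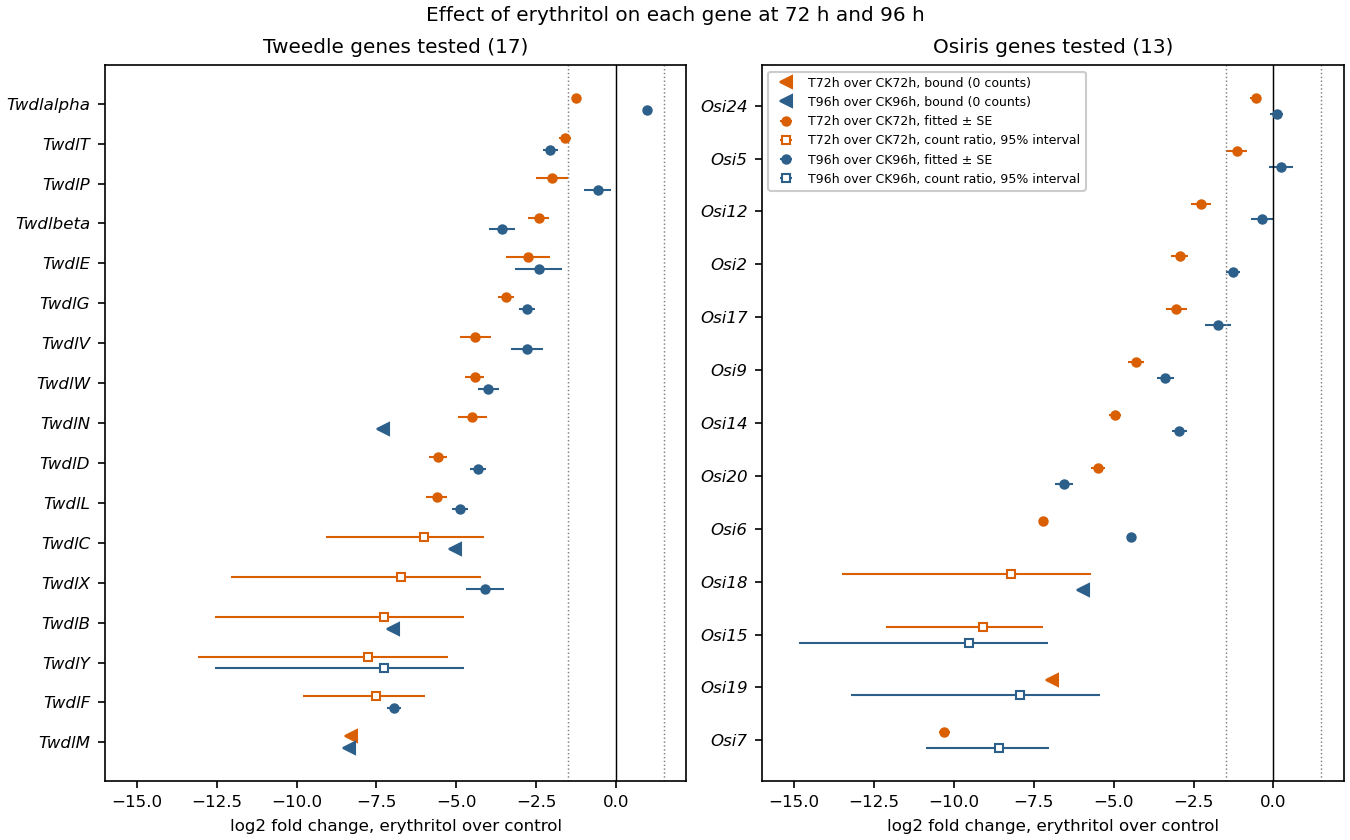
Log2 fold change of each tested gene in T72h over CK72h and in T96h over CK96h, with Tweedle genes on the left and Osiris genes on the right, where circles are fitted values with SE, open squares are ratios on 1 to 3 counts in 1 group with a 95% exact counting interval, triangles are bounds for genes at 0 counts (floor of 3 counts for the group), and dotted lines mark a log2 fold change of 1.5 in either direction. At 72 h the values run from -0.55 for Osi24 to -10.30 for Osi7, and Twdlalpha alone is above 0 with an adjusted p under 0.05, at 96 h. SE bars can lie below counting error where 1 group has few counts.

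Within the Osi1 to Osi20 run, 6 other genes are annotated, and 3 of them were tested: NPFR, a neuropeptide F receptor, the pseudogene CR31562, and CG15597. None was called by edgeR at 72 h or 96 h. NPFR had 3.40 ± 0.616 CPM in T72h and 3.98 ± 0.297 CPM in CK72h (log2 fold change -0.23, adjusted p = 0.229), and 1.99 ± 0.355 CPM in T96h and 2.31 ± 0.439 CPM in CK96h (log2 fold change -0.23, adjusted p = 0.324), and CG15597 was at an adjusted p of 0.0373 at 72 h. No other gene lies between TwdlM and TwdlD.

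The genes differed in how the erythritol effect changed with time. This was tested as the effect at 96 h minus the effect at 72 h, with the adjusted p (below 0.05) as the only criterion. Of the 13 Osiris genes tested, 7 passed, each with a less negative or more positive effect at 96 h, and 3 of the 17 Tweedle genes did. Over all genes tested, 78.9% passed (47.8% lower and 31.1% higher), so neither count stands above the share for both directions together. By direction, 53.8% of the tested Osiris genes passed upwards, against 31.1% of all genes, and 0 downwards, against 47.8%. Of the Tweedle genes, 2 passed upwards and 1 downwards. The largest difference among the Osiris genes that passed was that of Osi6, 2.78 (SE 0.24, adjusted p = 1.7e-10), followed by Osi14 at 2.01 (SE 0.40, adjusted p = 7.77e-05), Osi12 at 1.92 and Osi2 at 1.67. The differences of Osi5, Osi17 and Osi24 were 1.39, 1.30 and 0.65, and leaving out each of the 12 libraries in turn ended the call of Osi5 in 1 fit, of Osi17 in 8 and of Osi24 in 6. The call of Osi17 was also lost with the replicate block, with DESeq2 size factors and without the filter, and that of Osi24 with the DESeq2 test and without the filter. TwdlN had the only difference downwards, -5.83 (SE 1.57, adjusted p = 0.00185), fitted on 0 counts in T96h and so no measure of size. TwdlD had one of 1.26 (adjusted p = 0.0494), which was 0.66 and not called without T72h replicate 2, and lost its call in 9 of the 12 such fits and with DESeq2 size factors.

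Control flies showed how these genes changed between the days without erythritol. The Tweedle sum was 83.4 ± 0.902 CPM in CK96h and 82.5 ± 1.52 CPM in CK72h (exact 2-sided permutation p = 0.4). The Osiris sum was 93.4 ± 5.21 CPM in CK96h and 310.1 ± 3.38 CPM in CK72h, 3.32-fold lower (exact 2-sided permutation p = 0.1, the smallest possible). Without Osi6 and Osi7 it was 44.4 ± 1.36 CPM in CK96h and 79.9 ± 0.342 CPM in CK72h, 1.799-fold lower. Of the 22 Osiris genes, 4 were down-regulated (18.2%, against 4.07% of all genes tested), and 0 of the 26 Tweedle genes. An unadjusted p under 0.05 was reached downwards by 12 Osiris and 7 Tweedle genes, and DESeq2 called the same numbers as edgeR, 4 and 0. The share of all genes at that unadjusted p was not computed, so the 12 and 7 cannot be set against a background. Osi7 (log2 fold change -2.30, SE 0.07, adjusted p = 4.32e-19) and Osi6 (-2.18, SE 0.05, adjusted p = 4.62e-21) had the largest falls. Osi17 had -1.70 (adjusted p = 1.97e-06), and -1.47 without CK96h replicate 3, and Osi14 had -1.58 (adjusted p = 3.47e-11), and -1.47 without CK72h replicate 1. All CK96h libraries lay below all CK72h libraries in 13 Osiris genes (12 of them tested) and 8 Tweedle genes (8 tested), against 35.7% of all genes tested. They lay above in 0 Osiris and 7 Tweedle genes (4 of these tested), a direction for which no share of all genes was computed. The median of the 13 tested Osiris genes was -1.14 and that of the 17 Tweedle genes -0.38, against 0.12 for all genes. The 3 tested genes of other families within the Osi1 to Osi20 run were not called but also had negative values. The log2 fold change was -1.24 for CR31562 (adjusted p = 0.000383), -0.77 for NPFR (adjusted p = 0.000487) and -0.68 for CG15597 (adjusted p = 0.138).

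The Tweedle genes moved in both directions over this time. TwdlN was the only family gene called up-regulated in CK96h compared with CK72h, where 1.56% of all genes were. Its libraries, given above, did not overlap, and its log2 fold change was 2.22 (SE 0.18, adjusted p = 1.19e-10). For TwdlB the log2 fold change was 1.27 (adjusted p = 3.05e-07), for TwdlL 0.76 (adjusted p = 2.65e-05) and for TwdlF 0.48 (adjusted p = 6.65e-05), all without overlap and short of the fold threshold. TwdlN, TwdlB and TwdlL lie in the same run on 3R, whereas TwdlM in that run stood at 0.02 (adjusted p = 0.872) and TwdlD at -0.38 (adjusted p = 0.0143). Twdlalpha had the largest change downwards, -1.40 (SE 0.12, adjusted p = 1.85e-10), and -1.57 with upper-quartile factors, where it was called. TwdlQ, too low to be tested, had 13, 10 and 16 counts in CK96h, against 3, 0 and 4 counts in CK72h.

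**Figure D5:**
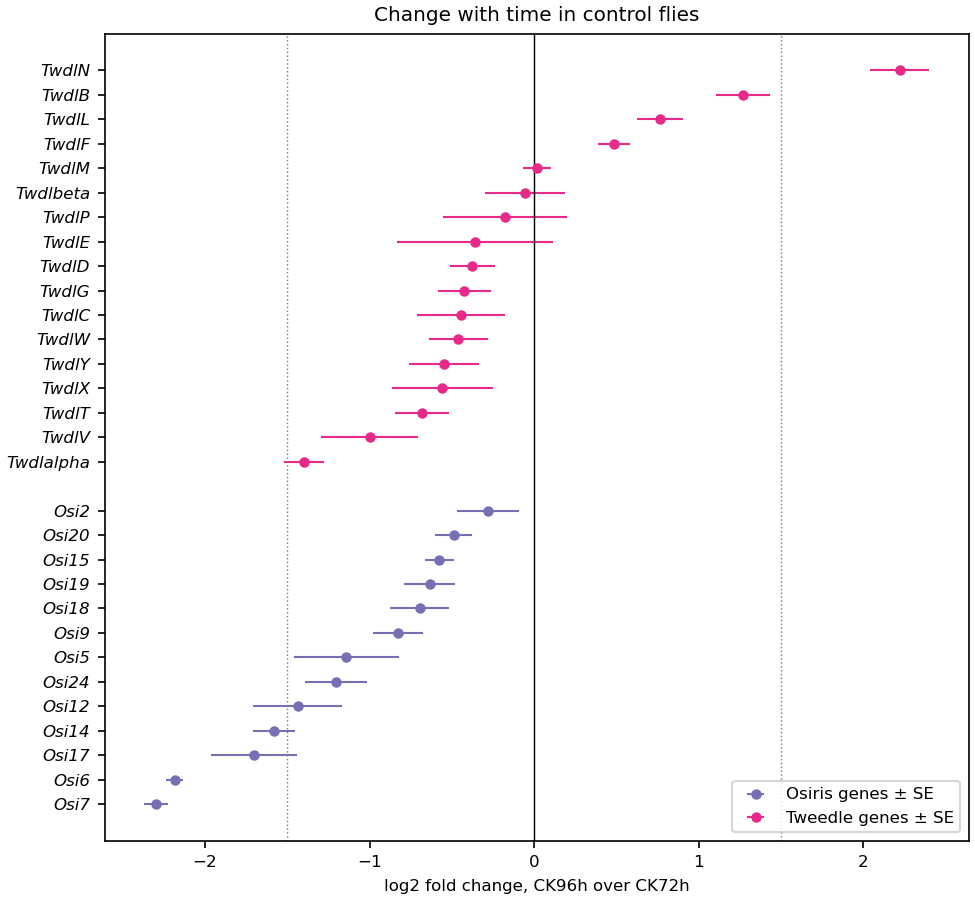
Log2 fold change of CK96h over CK72h with SE for the 17 tested Tweedle and 13 tested Osiris genes, each family in order of value, with dotted lines at 1.5 in either direction. The Osiris genes all lie below 0, from -0.28 for Osi2 to -2.30 for Osi7, while the Tweedle genes run from -1.40 for Twdlalpha to 2.22 for TwdlN.

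In erythritol-fed flies the family levels of the 2 days were compared in the same way. The Osiris sum was 8.01 ± 0.371 CPM in T96h and 7.26 ± 0.564 CPM in T72h (exact 2-sided permutation p = 0.3), and the Tweedle sum 11.3 ± 0.993 CPM in T96h and 8.21 ± 0.833 CPM in T72h (exact 2-sided permutation p = 0.1). By edgeR, 0 genes of either family were called in either direction, against 0.744% lower and 0.653% higher of all genes tested. An unadjusted p under 0.05 was reached by 3 Tweedle genes in each direction and by 2 Osiris genes in each direction, and DESeq2 called 1, Osi20. Here too the share of all genes at that unadjusted p was not computed. All T96h libraries lay below all T72h libraries in 1 Tweedle and 2 Osiris genes, against 28.6% of all genes tested. They lay above in 3 Tweedle and 2 Osiris genes, a direction for which no share of all genes was computed. Osi2, not called, had 1.17 ± 0.199 CPM in T96h and 0.448 ± 0.111 CPM in T72h (log2 fold change 1.39, SE 0.33, adjusted p = 0.0011).

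Per kb of exon, the order of the genes in CK72h began with Osi6 at 75.6 CPM per kb, followed by Osi7 at 33.7, TwdlM at 15.2, Osi14 at 14.7, Osi15 at 14.5, TwdlD at 10.1 and Osi20 at 9.01 CPM per kb. In CK96h Osi6 stood at 16.6 and TwdlM at 15.3 CPM per kb, followed by TwdlF at 10.4 and Osi15 at 9.77 CPM per kb. In both erythritol groups Twdlalpha was highest, at 3.25 CPM per kb in T72h and 5.75 CPM per kb in T96h.

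Other genes of the cuticle were read for comparison, from lists drawn up by function. Their counts stand beside 8.92% lower and 3.98% higher of all genes tested at 72 h, 7.15% and 3.97% at 96 h, and 4.07% and 1.56% in CK96h compared with CK72h. Of 98 further structural cuticle proteins in the table, of the Cpr and related families, 50 were tested, and 28 were down- and 2 up-regulated in T72h compared with CK72h (median log2 fold change -1.70). At 96 h 26 were down- and 1 up-regulated (median -1.57). Members went both ways. Cpr65Au had 8.61 ± 0.927 CPM in T72h and 65.6 ± 5.61 CPM in CK72h (log2 fold change -2.93, adjusted p = 1.65e-21), while Cpr49Ae had 102 ± 2.84 CPM in T72h and 47.5 ± 2.55 CPM in CK72h (log2 fold change 1.11, adjusted p = 1.38e-16, not called). Between the days in control flies, 2 were lower and 2 higher in CK96h.

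Of 19 chitin genes, 5 were down- and 1 up-regulated at 72 h, and 4 down- and 1 up-regulated at 96 h, with medians of -0.32 and -0.92. The summed level was 367 ± 5.72 CPM in T72h and 362 ± 6.79 CPM in CK72h, and 282 ± 10.1 CPM in T96h and 347 ± 4.27 CPM in CK96h, where the libraries did not overlap. mmy, which makes the sugar nucleotide from which chitin is built, had 124 ± 4.98 CPM in T72h and 86.8 ± 1.83 CPM in CK72h, and verm, a chitin deacetylase gene, had 25.1 ± 0.445 CPM in T72h and 42.0 ± 2.13 CPM in CK72h, both not called. Of 9 genes for zona pellucida domain proteins of the apical matrix, 4 were down-regulated at 72 h and 5 at 96 h, none up-regulated, and 5 were lower in CK96h than in CK72h. Among them dyl, which shapes the cuticle over hairs and bristles, had 0.632 ± 0.244 CPM in T72h and 17.6 ± 1.22 CPM in CK72h (log2 fold change -4.79, adjusted p = 3.87e-18), and 0.387 ± 0.171 CPM in T96h and 4.41 ± 0.369 CPM in CK96h (log2 fold change -3.49, adjusted p = 2.24e-12). Of 10 tested tanning genes, which make the catechols that harden and colour cuticle, 1 was down- and 1 up-regulated at 72 h and 2 were down-regulated at 96 h, with medians of -0.08 and -0.53. Ddc, the dopa decarboxylase gene, had 34.1 ± 1.32 CPM in T72h and 46.2 ± 2.31 CPM in CK72h. Of 5 epidermal transcription factor genes none was called at either time by edgeR, with medians of -0.22 at 72 h and -0.21 at 96 h. They summed to 192 ± 5.44 CPM in T72h and 225 ± 2.66 CPM in CK72h, and to 165 ± 3.93 CPM in T96h and 294 ± 12.1 CPM in CK96h. The level of grh, which drives epidermal barrier genes, went the other way, with 38.4 ± 1.48 CPM in T72h and 22.7 ± 1.07 CPM in CK72h (log2 fold change 0.76, adjusted p = 6.53e-12, not called).

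Embryonic and larval epidermis use both families, so markers of these stages were read as well. Of 15 larval genes matched, 4 were tested, and their summed level was 1.71 ± 0.396 CPM in T72h and 6.72 ± 0.301 CPM in CK72h, and 2.22 ± 0.467 CPM in T96h and 8.44 ± 0.976 CPM in CK96h. At 0 were 4 of the 15 in T72h and 4 in CK72h, and 7 in T96h and 2 in CK96h. Lsp1beta, a larval serum protein gene, had 0.296 ± 0.125 CPM in T72h and 2.29 ± 0.287 CPM in CK72h (log2 fold change -2.92, adjusted p = 6.65e-09), and was down-regulated at 96 h too (-3.12, adjusted p = 1.82e-11). The 19 embryo patterning genes summed to 42.1 ± 1.18 CPM in T72h and 62.3 ± 2.08 CPM in CK72h, and to 46.4 ± 1.29 CPM in T96h and 48.8 ± 0.857 CPM in CK96h, with 2 of 15 tested down-regulated at 72 h and 3 at 96 h. The accessory gland list, of male reproductive tissue, summed to 119 ± 8.9 CPM in T72h and 1936 ± 20.3 CPM in CK72h, and to 140 ± 5.01 CPM in T96h and 758 ± 9.77 CPM in CK96h. The part of these stages and tissues in the family results was not tested.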

How the data were processed

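Whole-fly RNA of 12 libraries, 3 each of T72h, CK72h, T96h and CK96h, was sequenced by the study after oligo(dT) selection, and the authors trimmed adapters, dropped reads of low quality, aligned to the Release 6 fly genome with HISAT2 and deposited raw counts per gene, with no scaling. CASAVA 1.8 is named in the submitters' processing notes. The sources used here name neither the counting tool nor its strand setting. Rows were named by the Ensembl annotation of the same assembly.

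Counts were tested with edgeR 4.0.16 in R 4.3.3 (filterByExpr, TMM, quasi-likelihood test, all 12 libraries in 1 fit, p-values adjusted by Benjamini-Hochberg over 13179 genes), with the study's thresholds. DESeq2 1.42.0, other scalings, no filter, fewer groups, a replicate block and leaving out each library were alternatives. Comparing libraries within a group found no copy (chi-square per degree of freedom 1.77 to 63.5). Same-numbered libraries did not deviate together. Bounds take 3 counts over a group as the floor, and intervals (95% level) cover counting error only. CPM errors are SD, n = 3. The rule for named genes gives every library for the 8 genes of each family with the highest group mean, for genes with opposite effects at the 2 times and for genes called up-regulated. TwdlT, Osi24, Tb and TwdlQ were added outside it. Members and lists were chosen with earlier results of these data known. List entries without a match by identifier (obst-C, tyn, stw, AANAT1, h, wg, dec-1) were not used here.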

Additional observations from a re-analysis of the deposited data

Results flagged for a closer look

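The erythritol effect at 96 h minus that at 72 h differed from 0 in 10 family genes by the test of the difference in edgeR (adjusted p under 0.05), as it did in 78.9% of all genes tested. On the log2 scale it was 2.22 for Twdlalpha, 2.78 for Osi6, 2.01 for Osi14, 1.92 for Osi12, 1.67 for Osi2, 1.39 for Osi5, 1.30 for Osi17, 1.26 for TwdlD, 0.65 for Osi24 and -5.83 for TwdlN. The last value is fitted on 0 counts in T96h. In Twdlalpha, Osi5 and Osi24 the fitted effect was negative at 72 h and positive at 96 h, and of the positive values only that of Twdlalpha passed the adjusted p.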

How the results depend on the processing

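Of 2342 recomputed log2 fold changes of family genes, 2251 kept their direction and their side of the threshold. With Tb, 38 values changed sign, none of them with an adjusted p under 0.05 in either fit. The Tweedle count in CK96h against CK72h was 2 in place of 1 with upper-quartile factors, library totals or only the 2 groups compared, when Twdlalpha was added, and 2 without the filter, when TwdlQ was added. Leaving out a library it was 1 to 2. The Osiris count in that comparison, 4 in the main fit, was 4 to 6 with the other settings and 3 to 6 leaving out a library. Osi12 (-1.44 in the main fit) was added with upper-quartile factors, library totals or only the 2 groups compared. Osi8 and Osi16 were added without the filter. In T96h against T72h the Tweedle count was 1 in place of 0 with DESeq2 size factors (TwdlN) or library totals (TwdlL), and 0 to 2 leaving out a library. The Osiris count there was 1 with DESeq2 size factors or DESeq2's test (Osi20) and with library totals (Osi2), and 0 to 2 leaving out a library. Differences between the times were called in 5 Tweedle genes with library totals, and in 2 to 5 leaving out a library (5 without T72h replicate 2 or replicate 3). For Osiris genes this was 4 to 8, with 4 without T72h replicate 1, where the differences of Osi5, Osi17 and Osi24 were 1.01, 0.94 and 0.64. With library totals the log2 ratio of the Tweedle sums was -3.58 at 72 h and -0.18 for CK96h against CK72h (0.02 with TMM), and that of the Osiris sums -5.67 and -1.92. Library totals moved the median of all genes at 72 h to -0.30. Over all genes, 741 were called in CK96h against CK72h (536 lower, 205 higher), 1419 with upper-quartile factors (1262 lower, 157 higher), 1545 with library totals (1394 lower, 151 higher) and 1161 without T72h replicate 3 (964 lower, 197 higher). The replicate numbers did not pair the libraries (correlations of -0.04 to 0.08 over 18 pairs, 7 of 12 libraries closest to their own number). With a replicate block the Tweedle counts at 72 h and 96 h were 16 and 15 and the Osiris counts 11 and 9, the Osi17 difference lost its call (1.31) and TwdlP gained one (1.46). With only the 2 groups compared, TwdlP at 72 h and TwdlE and TwdlV at 96 h did not pass the filter, leaving 15 and 13 Tweedle genes called. Library totals added Twdlalpha at 72 h (-1.52). Without the filter, Osi8 (-2.31) and Osi16 (fitted on 0 counts in T72h) were called at 72 h and TwdlU (-1.83) and TwdlQ (fitted on 0 counts in T96h) at 96 h, on at most 16 counts in a library. The sign changes were these. For CK96h against CK72h, TwdlM was -0.032 with DESeq2 size factors and with DESeq2's test, -0.15 with upper-quartile factors, -0.17 with library totals, -0.094 with only the 2 groups and -0.088 to 0.048 leaving out a library. Its difference between the times was 0.032, 0.15 and 0.17 with these 3 scalings and -0.048 to 0.088 leaving out a library. Tb was -0.11 with upper-quartile factors, -0.13 with library totals, -0.055 with only the 2 groups and -0.082 to 0.26 leaving out a library. Leaving out a library, TwdlP was -0.50 to 0.28 and Twdlbeta -0.16 to 0.066 there, and Osi24 was -0.046 to 0.22 in T96h against CK96h. The difference between the times was 0.047 for Osi15 with library totals. Leaving out a library it was -2.16 to 0.22 for Osi15, -1.71 to 0.80 for Osi18, -1.33 to 2.44 for Osi7, -2.79 to 1.85 for Tb, -1.19 to 4.37 for TwdlE, -0.049 to 1.08 for TwdlW, -1.38 to 4.14 for TwdlX and -1.39 to 2.46 for TwdlY.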
